A study of Rattus norvegicus with 4 samples.

Results

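Pancreas of iron-overloaded (FeO) rats was compared with pancreas of iron-adequate (FeA) rats on 2 two-colour oligonucleotide arrays, out of 4 arrays in the series. Weanling male Sprague-Dawley rats were fed purified diets with 35 ppm iron (FeA) or, with carbonyl iron added, 20275 ppm iron (FeO), as the labels give them, for 3 weeks. RNA of the whole pancreas of 6 rats was combined into 1 pool for each diet. Array 1 carried the FeO pool in Cy5 and the FeA pool in Cy3, and array 2 carried the same pools with the dyes exchanged. The other 2 arrays compared an iron-deficient pool (FeD, 5 ppm iron) with the same FeA pool and are used below only for values side by side. The log2 ratio of FeO over FeA was computed per gene probe, turned on array 2 and averaged. Of 30367 gene probes, 30317 had a ratio on both arrays. Of these probes, 18314 were well above background on both arrays in at least 1 pool. The sign was the same on both arrays for 9504 of them (51.9%) and opposite for 8810. Those 9504 probes fell in 8906 of the 26484 genes or transcripts on the array. Counts of genes past a fold need the same sign on both arrays. List medians and the values of other named genes use all 18314 probes, whatever their sign.

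Iron is taken into cells by the transferrin receptor, stored in ferritin and exported by ferroportin, and the excess that storage cannot hold can drive the formation of oxygen radicals. The pancreas is mostly acinar tissue, which secretes digestive enzymes through ducts, with islets that release insulin and glucagon. In iron overload disorders iron deposits are found in acinar and islet cells. Whole pancreas RNA also carries the RNA of vessels, connective tissue, immune cells and any fat or lymph node that adheres to the gland. Fewer cells of a type and less RNA per cell cannot be told apart in such samples.

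Since each diet was 1 pool, the spread among rats is not in these data and no test of the diet was possible. A high level in a pool can come from 1 rat or from all 6. The only error that could be measured is the difference between the arrays, which includes hybridisation and dye effects. Over 16424 detected genes (values averaged over the detected probes of a gene), the SD of the difference between the arrays, divided by 2, was 0.187 on the log2 scale, and the SD of the mean log2 ratio was 0.288. The median spot signal was 205 and 121.5 intensity units for FeO and 115 and 183 for FeA on arrays 1 and 2, and between 63.6% and 71.2% of spots per channel were well above background. Signals of Cy5 were the brighter ones on both arrays, so raw signals show brightness only and pools are compared by the normalised ratio.

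The tissue label fits the acinar markers. Signals for the proelastase gene Cela1 were 489647 (FeO) and 172312 (FeA) on array 1 and 220245 and 452227 on array 2. The acinar genes Pnlip, Ctrb1 and Amy2a3 reached 161022 or more in every channel. Prss1 and Cpa1, for trypsinogen and procarboxypeptidase, were as bright on array 1 but were marked as outlier spots on array 2 and have no mean ratio.

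A mean log2 ratio of at least 1, a 2-fold difference, with the same sign on both arrays was reached upwards by 100 genes and downwards by 77. Those are 0.609% and 0.469% of the 16424 detected genes. At 4-fold, 10 genes (0.0609%) were higher in FeO and 19 (0.116%) were lower. The difference between the arrays, divided by 2, reached a size of 1 in 4 genes and a size of 2 in 0 genes. The sign alone carried less, since 28.1% of detected genes were higher on both arrays and 24.1% were lower on both, leaving 7846 genes with opposite signs. These shares are the baseline for all counts below of list members higher or lower on both arrays. Of the genes past 2-fold, 62 passed it upwards on each array alone and 58 downwards. Just inside the 2-fold limit, within 0.05 on the log2 scale, lay 14 genes higher and 5 lower in FeO, and just outside it 13 and 9.

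**Figure D1:**
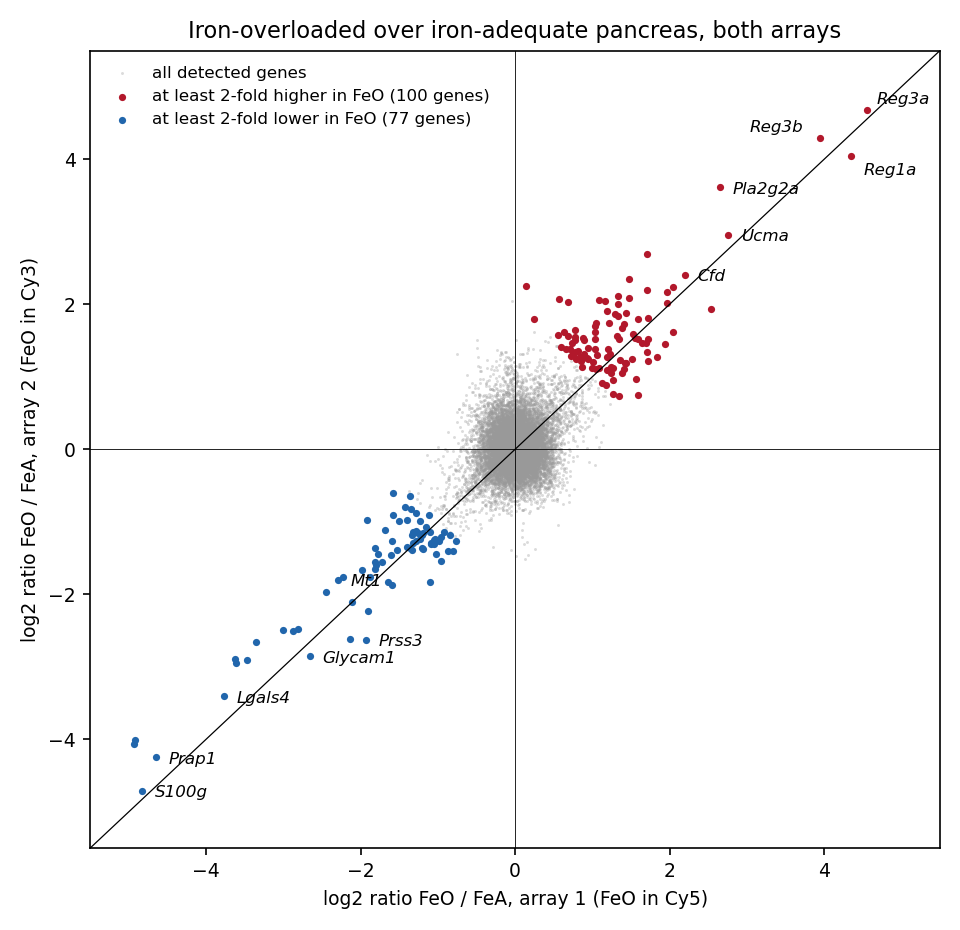
Log2 ratio of FeO over FeA on array 1 (x axis) and array 2 (y axis) for the 16424 detected genes, with the 100 genes at least 2-fold higher in red and the 77 at least 2-fold lower in blue. Both ends lie along the diagonal, with Reg3a at 4.55 and 4.68 and S100g at -4.83 and -4.71, while most genes form a round cloud at 0.

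The regenerating (Reg) genes were the highest in the FeO pool. They encode small secreted C-type lectins that acinar cells make in pancreatitis and other injury and that are linked to islet regeneration. Reg3a gave signals of 45578 (FeO) and 856 (FeA) on array 1 and of 21535 and 1390 on array 2. Its log2 ratio was 4.55 and 4.68, a mean of 4.62 or 24.5-fold. Reg1a was 4.35 and 4.04 (18.3-fold) and Reg3b 3.95 and 4.29 (17.4-fold). These 3 genes held the first 3 places among all detected genes. The FeD pool gave 1.88 and 2.21 for Reg1a, 0.93 and 1.05 for Reg3a and 0.74 and 1.04 for Reg3b against the same FeA pool.

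The other family members on the array stood apart from these. Reg4, a member made by gut epithelium, had a FeO signal at background on both arrays and was at least 2.28-fold lower (a bound, from the FeA mean and the lowest signal that counts as well above background). Reg3g was dim as well, with array 1 signals of 117 and 94.5 in FeO and FeA, and its bound was 1.36-fold lower. Probes for Reg3a and Reg3b target related transcripts, and cross-hybridisation between them was not tested.

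The 250 bases before the start of the 3 high Reg genes are shown because the genes lie close together on chromosome 4 and were the highest in FeO. They were read from RefSeq on build GRCr8 at chr4:112450216-112450465 on the plus strand, chr4:112430147-112430396 on the plus strand and chr4:112419526-112419775 on the plus strand. RefSeq lists 2 starts for Reg3a, of which the first is shown. Capitals mark CTGGGAA on either strand, the core of the type II interleukin-6 response element of acute phase genes.
Reg1a: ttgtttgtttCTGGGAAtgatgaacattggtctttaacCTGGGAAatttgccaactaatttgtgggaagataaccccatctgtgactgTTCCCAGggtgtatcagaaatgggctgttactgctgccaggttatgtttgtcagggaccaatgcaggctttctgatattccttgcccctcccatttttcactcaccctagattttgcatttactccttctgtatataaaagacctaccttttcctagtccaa
Reg3a: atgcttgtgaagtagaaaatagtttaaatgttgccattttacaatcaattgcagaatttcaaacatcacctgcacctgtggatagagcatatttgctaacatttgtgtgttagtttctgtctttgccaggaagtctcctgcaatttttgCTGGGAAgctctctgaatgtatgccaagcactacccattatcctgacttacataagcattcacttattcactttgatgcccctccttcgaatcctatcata
Reg3b: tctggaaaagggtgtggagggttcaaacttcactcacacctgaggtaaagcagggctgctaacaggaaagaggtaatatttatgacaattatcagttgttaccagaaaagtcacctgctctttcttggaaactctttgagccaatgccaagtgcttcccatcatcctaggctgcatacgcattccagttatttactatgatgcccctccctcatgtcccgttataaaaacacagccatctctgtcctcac
Reg1a held 3 matches, Reg3a 1 and Reg3b 0. Of 33469 rat promoters of this length, 9.56% held at least 1 match and 0.033% held at least 3. A match describes letters only and does not show a site in use.

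Most zymogen genes with a mean ratio were level or slightly lower in the FeO pool. Of 21 detected genes for acinar enzymes and secreted proteins, 11 were lower on both arrays and 3 higher, with a median log2 ratio of -0.25 against 0.01 over all detected genes. This median was 0.11 with median centring in place of loess, so its direction depends on the scaling. Of 30 listed genes on the array, those without a mean ratio were Prss1, Cpa1, Cela2a, Cela3b, Ctrl, Clps, Gp2, Spink1 and Erp27. A missing ratio need not mean a low level, since Prss1 and Cpa1 were bright on array 1, with log2 ratios of 0.32 and -0.51 there. Prss3, a trypsinogen, was the only member past 2-fold, at -1.93 and -2.63 (4.86-fold lower). Its FeO signal was still 132078 on array 1. Of the 21 genes, 10 had a saturated spot on array 1 and 6 of these also on array 2, among them Pnlip and Ctrb1, so the count and the median rest partly on saturated signals. Among genes with no saturated spot, Cel, the bile salt-activated lipase, was -0.32 and -0.98, Pnliprp1 -0.42 and -0.73 and the amylase gene Amy2a3 -0.37 and -0.76. Spink3, which encodes a trypsin inhibitor, went the other way at 0.74 and 0.49.

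Factors that maintain the acinar state gave small values, and of 18 acinar regulators 4 were higher on both arrays, 5 lower and 0 past 2-fold. Ptf1a, the acinar master regulator, was -0.76 and -0.66, and Xbp1, which builds the secretory endoplasmic reticulum, -0.33 and -0.98. Among 30 genes of endoplasmic reticulum folding and stress, 13 were lower on both arrays and 4 higher, and the median was -0.11 (0.03 with median centring). Chac1, a glutathione-degrading enzyme induced in the unfolded protein response, was the 1 member past 2-fold at 0.66 and 1.39. Hspa5, the main chaperone, was -0.19 and -0.42, and Trib3 -0.97 and -0.21. Derl3, a component of endoplasmic reticulum degradation named after its values were seen, was -1.32 and -1.14.

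Islet hormones split by cell type. Glucagon (Gcg), of alpha cells, was higher at 1.19 and 1.10 (2.21-fold), with signals of 2586 (FeO) and 555 (FeA) on array 1 and 1204 and 925 on array 2. The other 7 hormone genes were lower on both arrays. Ppy, pancreatic polypeptide, was -1.29 and -0.87, Iapp, the amyloid peptide released with insulin, -0.85 and -1.19, and Pyy -1.11 and -0.91. These 3 were past 2-fold. The insulin genes stayed inside it, with Ins1 at -1.09 and -0.53 and Ins2 at -0.91 and -0.64. Ghrl was -0.63 and -0.58 and Sst, somatostatin, -0.13 and -0.36.
The granule and beta-cell genes changed less. Of 12 granule genes, 7 were lower on both arrays and 2 higher, and Chgb was the lowest at -0.58 and -0.46. Among 13 genes for beta-cell factors and glucose sensing, 0 passed 2-fold. Pdx1 was -0.24 and -0.37 and the glucose transporter gene Slc2a2 -0.46 and -0.12. The FeD pool was 0.34 and 0.08 for Gcg and -0.04 and 0.48 for Ppy.

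Duct genes leaned lower, with 9 of 17 lower on both arrays, 3 higher and a median of -0.26. Over all detected genes 24.1% were lower on both and 28.1% higher. Keratins Krt19 (-1.27 and -0.69) and Krt18 (-0.79 and -0.77) and osteopontin, Spp1 (-0.83 and -0.92), led that group. The duct chloride channel Cftr was 0.44 and 0.15 and the duct factor Sox9 0.18 and 0.08. Of 20 genes of the pancreatic injury response, 10 were higher on both arrays and 4 lower, against the same shares. Lcn2, a secreted protein that binds iron-carrying siderophores, was 0.78 and 1.51 (2.21-fold) and Timp1, a protease inhibitor, 1.18 and 0.89 (2.05-fold). Anxa1 was 0.84 and 0.53. Among 23 immediate early and DNA damage genes the early ones Nr4a1 (0.55 and 0.83) and Klf6 (0.58 and 0.39) were higher and Ccng1, a p53 target, lower at -0.77 and -1.27. Ccng1 was also low in FeD, with a mean of -1.38.

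**Figure D2:**
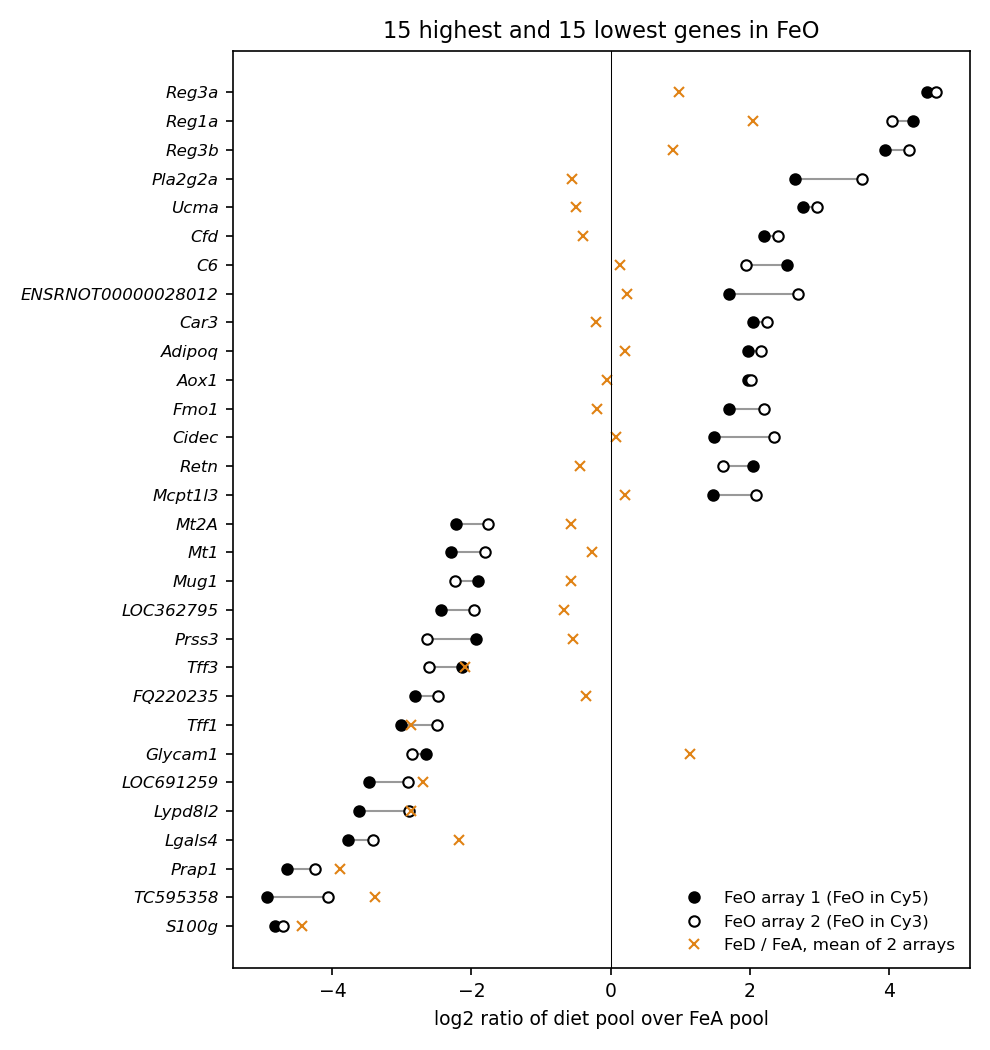
Log2 ratio over FeA of the 15 highest and the 15 lowest genes in FeO among those well above background in both pools, with a filled circle for array 1, an open circle for array 2 and a cross for the FeD mean. Among the high genes only the Reg genes had an FeD value above 0.5, and the gut genes S100g and Prap1 were also low in FeD.

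Fat cell genes held more members past 2-fold upwards than any other list. Of 37 detected genes for adipocytes and lipogenesis, 32 were higher on both arrays, 0 were lower on both and 15 were past 2-fold, where 0.609% of all detected genes were. The median was 0.94, and 0.72 and 0.92 on the arrays taken alone. It was 0.59 with no filter on dim probes and 1.20 with the processed signals. Of 43 listed genes on the array, those not detected were Acaca, Scd, Lpin1, Ucp1, Ppargc1a and Dio2. Cfd, adipsin, was 2.20 and 2.41 (4.94-fold), and its signals were 35409 (FeO) and 3211 (FeA) on array 1 and 16189 and 4942 on array 2. Adiponectin (Adipoq) was 1.97 and 2.17 (4.20-fold) and resistin (Retn) 2.04 and 1.61 (3.55-fold). Leptin (Lep) was -0.11 and 0.31.
Enzymes of fat synthesis and storage were in the same range. Fatty acid synthase (Fasn) was 1.33 and 2.00, Dgat2, which makes triglyceride, 1.16 and 2.05, and Gpd1, which supplies glycerol phosphate, 1.30 and 1.86. Thrsp, a lipogenic protein, was 1.33 and 1.83 and Pck1, which serves glyceroneogenesis in fat, 1.19 and 1.91. Pparg, the master factor of fat cells, was 1.60 and 1.52 and the beta3-adrenergic receptor Adrb3 1.70 and 1.47.
Proteins of the lipid droplet and fatty acid uptake were higher too. Cidec was 1.48 and 2.35, Pnpla2, the first lipase of fat breakdown, 1.44 and 1.20, Fabp4 1.72 and 1.21 and Cd36 1.01 and 1.20. Carbonic anhydrase 3 (Car3), abundant in fat, was 2.04 and 2.25 (4.42-fold). Plin1, a defining marker, was at background in FeA and at least 1.10-fold higher, and Acly and Mlxipl were near 0. All 4 defining markers of adipocytes (Adipoq, Plin1, Cidec, Fabp4) were higher on both arrays. Their summed raw signal in Cy5 was 16998 for FeO (array 1) and 3644 for FeA (array 2), and in Cy3 it was 7301 for FeO (array 2) and 2334 for FeA (array 1). In FeD the same 37 genes had a median of -0.03. Whether the FeO pool held more fat tissue was not tested.

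**Figure D3:**
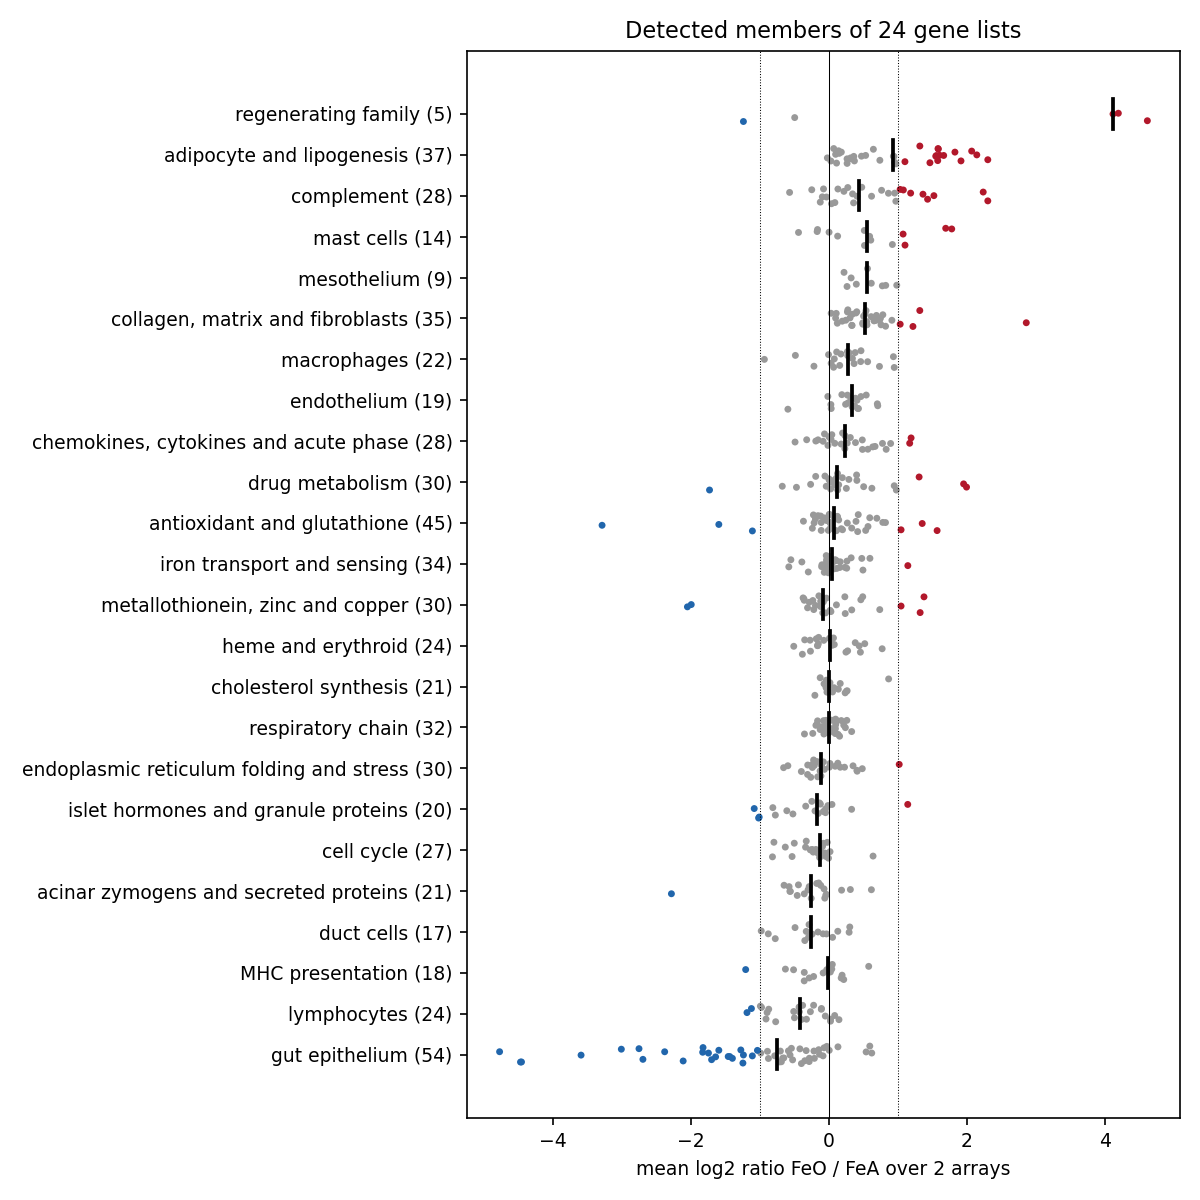
Mean log2 ratio of FeO over FeA (x axis) of every detected member of 24 gene lists, with a bar at the list median, dotted lines at 2-fold and members past it in red (higher) or blue (lower). Adipocyte, complement, mast cell and matrix genes lie right of 0, gut and lymphocyte genes lie left, and iron, heme and respiratory chain genes centre on 0.

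Complement genes, which encode plasma proteins made by liver, macrophages and fat, were higher as a group. Of 28 detected, 20 were higher on both arrays, 4 lower and 8 past 2-fold, with a median of 0.44. All 6 genes of the alternative pathway were higher on both arrays, among them Cfb at 1.34 and 1.52 (2.70-fold) and Cfd, which also stands in the fat cell list. In the classical pathway C4a was 1.71 and 1.34 (2.87-fold), C2 1.03 and 1.70, C1s 0.89 and 1.27 and C1r 0.85 and 1.22. C3, the hub of all pathways, was 1.24 and 1.13 (2.28-fold). The terminal component C6 was 2.54 and 1.94 (4.72-fold), whereas C5 was -0.03 and -0.46 and C9 -0.14 and -0.01. In FeD C3 was 0.63 and 0.46 and the median of the list was 0.25.

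Among chemokines, cytokines and acute phase genes, 17 of 28 were higher on both arrays and 4 lower, with a median of 0.23. Serpina3n, an acute phase protease inhibitor, was 1.27 and 1.12 and Cxcl14 1.60 and 0.75. Ccl2, which attracts monocytes, was 1.07 and 0.72. The main inflammatory cytokines were near 0 where detected, with Tnf at 0.03 and 0.04 and Il1b at -0.09 and -0.22, and Il6 was not well above background in either pool on both arrays. Of 28 interferon-stimulated genes, 0 passed 2-fold and the median was 0.05. Wfdc21, of the same whey acidic protein family as several protease inhibitors, was 1.72 and 1.52 and was named after its values were seen.

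Mast cell proteases were higher in FeO. Cma1, chymase, was 1.60 and 1.79 (3.24-fold), Mcpt1l3 1.47 and 2.09 (3.44-fold), Tpsab1, tryptase, 0.89 and 1.32 and Tpsb2 1.05 and 1.10. Carboxypeptidase Cpa3 was 0.95 and 0.89 and the stem cell factor receptor Kit 0.60 and 0.44. Of 24 listed genes on the array 14 were detected, and 11 of these were well above background in both pools. Those not detected were Fcer1a, Ms4a2, Gata2, Hpgds, Il1rl1, Tpsg1, Mcpt3, Mcpt4, Mcpt8l2 and Mcpt10. The median was 0.55, and 0.12 with no filter on dim probes. Of the 14 detected genes 8 were higher on both arrays and 3 lower. Mcpt8 and Mcpt9, proteases of basophils and of a mast cell subset, were among the lower ones at -0.11 and -0.22 and at -0.39 and -0.49, the latter with FeO above background on array 1 alone. Mast cell proteases, insulins, RT1 chains, metallothioneins and the Gsta enzymes have close relatives, so a probe can read several genes.
Macrophage genes leaned the same way without reaching 2-fold. Of 22, 12 were higher on both arrays and 2 lower, where 28.1% and 24.1% of all detected genes were, with a median of 0.27. Cd163, the receptor for haptoglobin-bound hemoglobin, was 0.77 and 1.13 and Cd14 1.07 and 0.80. Marco, a scavenger receptor, was lower at -1.04 and -0.83. Of 8 neutrophil genes, 3 were higher on both arrays and 3 lower, with a median of -0.03.

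Connective tissue genes were higher with few large values. Of 35 collagen, matrix and fibroblast genes, 32 were higher on both arrays and 0 lower on both, and the median was 0.53 (0.32 and 0.62 on the single arrays). Ucma, a cartilage matrix protein rich in carboxyglutamate, was 2.76 and 2.96 (7.27-fold), the fifth highest of all detected genes. Fibronectin (Fn1) was 1.38 and 1.06. Col4a2 was 0.57 and 2.07, with arrays far apart, and its partner Col4a1 0.59 and 0.46. Col1a1 was 0.37 and 0.86 and Col3a1 0.51 and 0.87, while Postn was 0.06 and 0.14. All 9 mesothelial genes, among them Msln at 0.75 and 0.90, were higher on both arrays, and so were 14 of 19 endothelial genes, with Kdr at 0.75 and 0.66. Over all detected genes 28.1% were. Only 6 of the 9 mesothelial genes were well above background in both pools. The others passed the filter in 1 pool, which favours a ratio towards that pool. The FeD medians of the matrix and mesothelial lists were 0.09 and 0.05.

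Lymphocyte genes were lower in the FeO pool. Of 24 detected, 18 were lower on both arrays and 1 higher, where 24.1% and 28.1% of all detected genes were, and the median was -0.41. Cd3g, a chain of the T cell receptor complex, was -1.08 and -1.29 (2.27-fold lower) and Coro1a, an actin regulator of leukocytes, -1.10 and -1.14. The T cell kinase gene Zap70 (-0.86 and -0.88) and the B cell gene Cd79b (-1.37 and -0.57) were close to 2-fold. The defining T cell marker Cd3d was -0.42 and -0.44, and Cd3e, with FeO above background on array 1 alone, was -0.60 and -0.40. The list median was -1.03 with the processed signals.
Glycam1, a mucin of the high endothelial venules of lymph nodes, was -2.65 and -2.86 (6.75-fold lower). Ccl21 (-1.23 and -0.74) and Ccl19 (-0.93 and -1.03), chemokines that guide lymphocytes into lymph nodes, were lower, and Cxcl13, which attracts B cells, was higher at 0.99 and 0.97. Of 9 genes of lymphoid homing 4 were lower on both arrays and 2 higher. Of 18 genes of antigen presentation 8 were lower on both and 2 higher. The shares over all detected genes were 24.1% lower and 28.1% higher. RT1-Db1, a class II antigen presentation chain, was -1.25 and -1.16. The class II genes Cd74 (-0.93 and -0.09) and RT1-Da (-0.21 and -0.50) were lower by less, and genes of class I had a median of 0.03.
Against the same FeA pool, the FeD arrays gave a median of 0.55 for the 24 lymphocyte genes. Glycam1 was 1.44 and 0.85 there, Cd3g 0.95 and 0.80 and Coro1a 0.91 and 0.98. The part of lymph node tissue in any pool was not tested.

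Gut epithelial genes were lower in the FeO pool and made up 9 of the 19 genes at least 4-fold lower. Of 54 detected, 45 were lower on both arrays, 4 higher and 23 past 2-fold downwards, where 0.469% of all detected genes were, and the median was -0.75. Only 35 of the 54 were well above background in both pools. The others passed the filter in 1 pool. A gene that passed in FeA alone is low in FeO partly by that filter, so these counts are partly fixed by it. The list median was -1.53 with a normexp offset of 0 and -2.10 with the processed signals. S100g, the calcium-binding protein calbindin-D9k, had signals of 278 (FeO) and 3326 (FeA) on array 1 and of 142.5 and 5692 on array 2. Its log2 ratio was -4.83 and -4.71 (27.3-fold lower). Prap1 was -4.65 and -4.25 and the lectin Lgals4 -3.77 and -3.41.
Carriers of dietary lipid were at background in FeO. Fabp1 and Fabp2, fatty acid binding proteins, were lower by at least 21.8-fold for the former and at least 6.32-fold for the latter, and the bound for apolipoprotein Apoa1 was 7.95-fold. Mucous cell genes followed, with the trefoil peptides Tff1 at -3.01 and -2.49 and Tff3 at -2.14 and -2.62 and the disulfide isomerase Agr2 at least 3.24-fold lower. Guca2a, uroguanylin's relative guanylin, was -1.99 and -1.67, Krt20 -1.65 and -1.84 and Cdh17, an intestinal cadherin, at least 3.54-fold lower.
Other members were nearer to 0. Vil1, a brush border marker, was -0.55 and 0.28, and Muc2, the goblet cell mucin, -0.45 and -0.20. The 2 probes of intestinal alkaline phosphatase (Alpi) differed, at -2.58 and -0.29. The FeD pool was low for the same genes against the same FeA pool, with S100g at -4.39 and -4.49, Prap1 at -4.02 and -3.77 and a list median of -0.68. Both comparisons share the FeA pool, so a gene high in that pool is low in both. Whether gut tissue was in the FeA pool was not tested.
Paneth cell genes in the list included Defa24, at -1.53 and -1.39, and Mmp7, which was at least 4.05-fold lower in FeO but 1.22 and 0.83 in FeD.

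**Figure D4:**
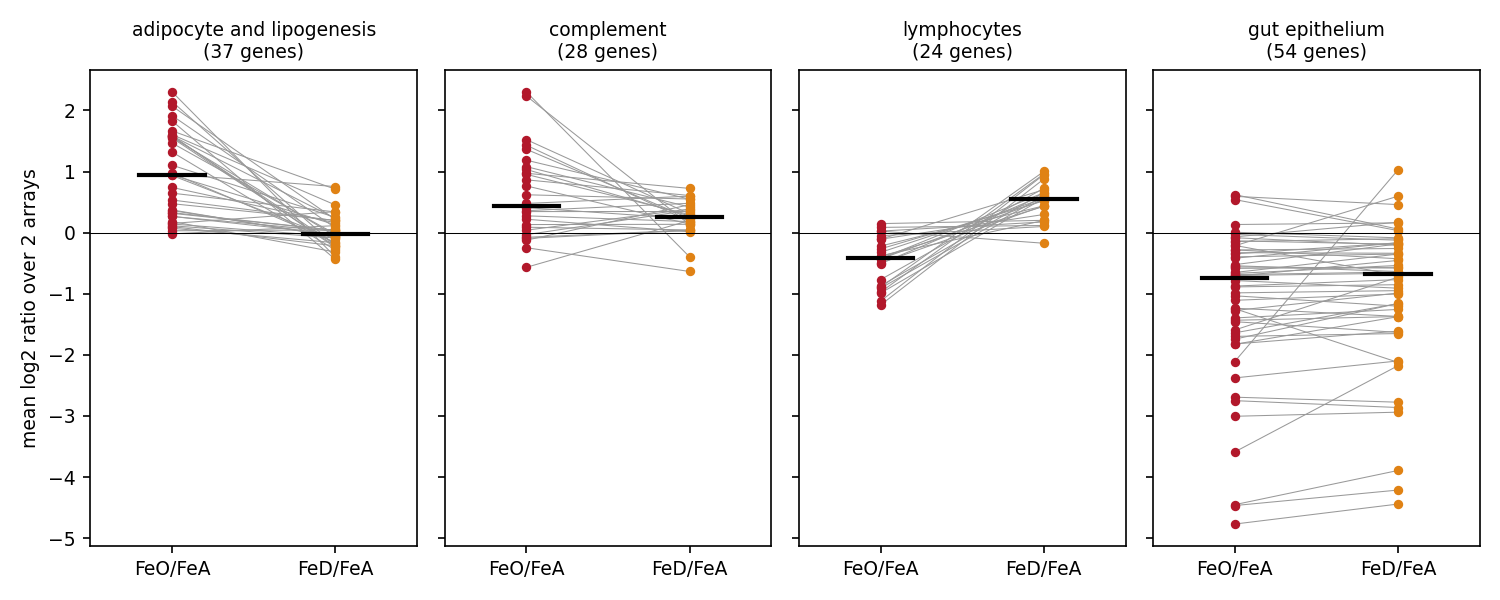
Mean log2 ratio over the shared FeA pool of the members of 4 gene lists in FeO (left of each panel) and FeD (right), with lines joining a gene and bars at the medians. Adipocyte genes have a median of 0.94 in FeO and -0.03 in FeD, lymphocyte genes of -0.41 and 0.55, and gut genes of -0.75 and -0.68.

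Genes of iron uptake, storage and export differed little between the FeO and FeA pools. Of 34 detected iron genes, 13 were higher on both arrays, 9 lower and 1, Lcn2, past 2-fold, and the median was 0.05. Over all detected genes 28.1% were higher on both arrays and 24.1% lower. The transferrin receptor (Tfrc), whose messenger RNA is destabilised when cells are rich in iron, was -0.52 and -0.64, with signals of 549.5 (FeO) and 383 (FeA) on array 1 and 233 and 564 on array 2. In FeD it was 0.31 and 0.45. Slc11a2, the importer DMT1, was -0.31 and -0.79 and ferroportin (Slc40a1) -0.23 and -0.36.
Ferritin is set mainly at translation. The light chain gene Ftl1 was 0.34 and 0.30 and the heavy chain gene Fth1 -0.01 and -0.12. Transferrin (Tf) was 0.88 and 0.11, the reductase gene Steap4 0.73 and 0.47 and Cybrd1 0.43 and -0.21. The importers Slc39a14 (-0.14 and 0.13) and Slc39a8 (-0.02 and -0.18), which carry iron not bound to transferrin, were near 0, as was hepcidin (Hamp) at 0.08 and 0.05. In the pathway that senses iron through bone morphogenetic proteins, Id1 was 0.48 and 0.47, Smad7 -0.19 and -0.02, Smad1 -0.37 and -0.41 and Bmp6 -0.04 and -0.04.

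Metallothioneins, small proteins that bind zinc and copper, were lower in FeO. Mt1 gave signals of 12747 (FeO) and 24745 (FeA) on array 1 and 7962 and 44964 on array 2. Its log2 ratio was -2.29 and -1.80 (4.14-fold lower), and Mt2A was -2.23 and -1.76 (3.98-fold lower). Mt3, which is mostly neuronal, was at background in FeO and at least 1.27-fold lower. In FeD Mt1 was -0.22 and -0.30 and Mt2A -0.67 and -0.46.
The promoters of Mt1 and Mt2A are shown because the genes lie next to each other on chromosome 19 and had nearly equal ratios. The 250 bases before each start were read from RefSeq on build GRCr8, at chr19:10832976-10833225 on the minus strand and chr19:10838709-10838958 on the minus strand. Capitals mark TGCACNC or TGCGCNC on either strand, the core of the metal response element that the zinc-sensing factor MTF1 binds.
Mt1: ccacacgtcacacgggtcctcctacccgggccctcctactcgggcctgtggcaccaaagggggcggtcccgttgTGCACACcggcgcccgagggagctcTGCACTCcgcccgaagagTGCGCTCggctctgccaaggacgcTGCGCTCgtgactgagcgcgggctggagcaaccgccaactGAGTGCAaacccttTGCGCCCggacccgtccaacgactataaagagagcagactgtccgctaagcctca
Mt2A: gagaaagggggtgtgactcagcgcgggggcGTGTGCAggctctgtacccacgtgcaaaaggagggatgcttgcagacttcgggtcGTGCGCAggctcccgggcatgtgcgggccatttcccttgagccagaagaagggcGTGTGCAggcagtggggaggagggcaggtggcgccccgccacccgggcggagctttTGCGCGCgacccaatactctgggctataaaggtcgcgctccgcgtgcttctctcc
Mt1 held 6 matches and Mt2A 4. The promoter of Mt3, also on chromosome 19 and not shown, held 3. At least 1 match stood in 20.6% of the 33469 promoters, at least 3 in 1.17%, at least 4 in 0.266% and at least 6 in 0.027%. These matches describe letters only, and whether any site was in use was not tested. No marked letters of one match overlapped those of another.
Zinc and copper transporters gave mixed values. Slc30a2, which loads zinc into zymogen granules, was 1.03 and 1.62, and 0.86 on average in FeD. Slc30a1, the zinc exporter that MTF1 also controls, was 0.00 and -0.71 and Slc39a10 0.93 and 0.55. The copper amine oxidase Aoc3 of fat and vessels was 1.51 and 1.25 and the secreted copper-zinc dismutase Sod3 0.77 and 1.33. Copper carriers inside cells were small, with Atox1 at -0.39 and -0.35, Commd1 at -0.33 and -0.28, Atp7a at 0.47 and 0.01, Atp7b at 0.06 and -0.29 and Slc31a1 at -0.07 and 0.11. Ceruloplasmin (Cp) was 0.19 and 0.28.

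Of 24 heme and erythroid genes, 0 passed 2-fold. In heme synthesis Urod was -0.44 and -0.57, Alad -0.38 and -0.32 and Alas1, the first enzyme, -0.03 and -0.27. Heme oxygenase 1 (Hmox1), which frees iron from heme, was -0.04 and 0.20 and Hmox2 -0.31 and -0.22. The red cell genes Alas2 (0.20 and 0.68) and Hbb (0.04 and 0.87) were higher on both arrays, with the arrays unequal.

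**Figure D5:**
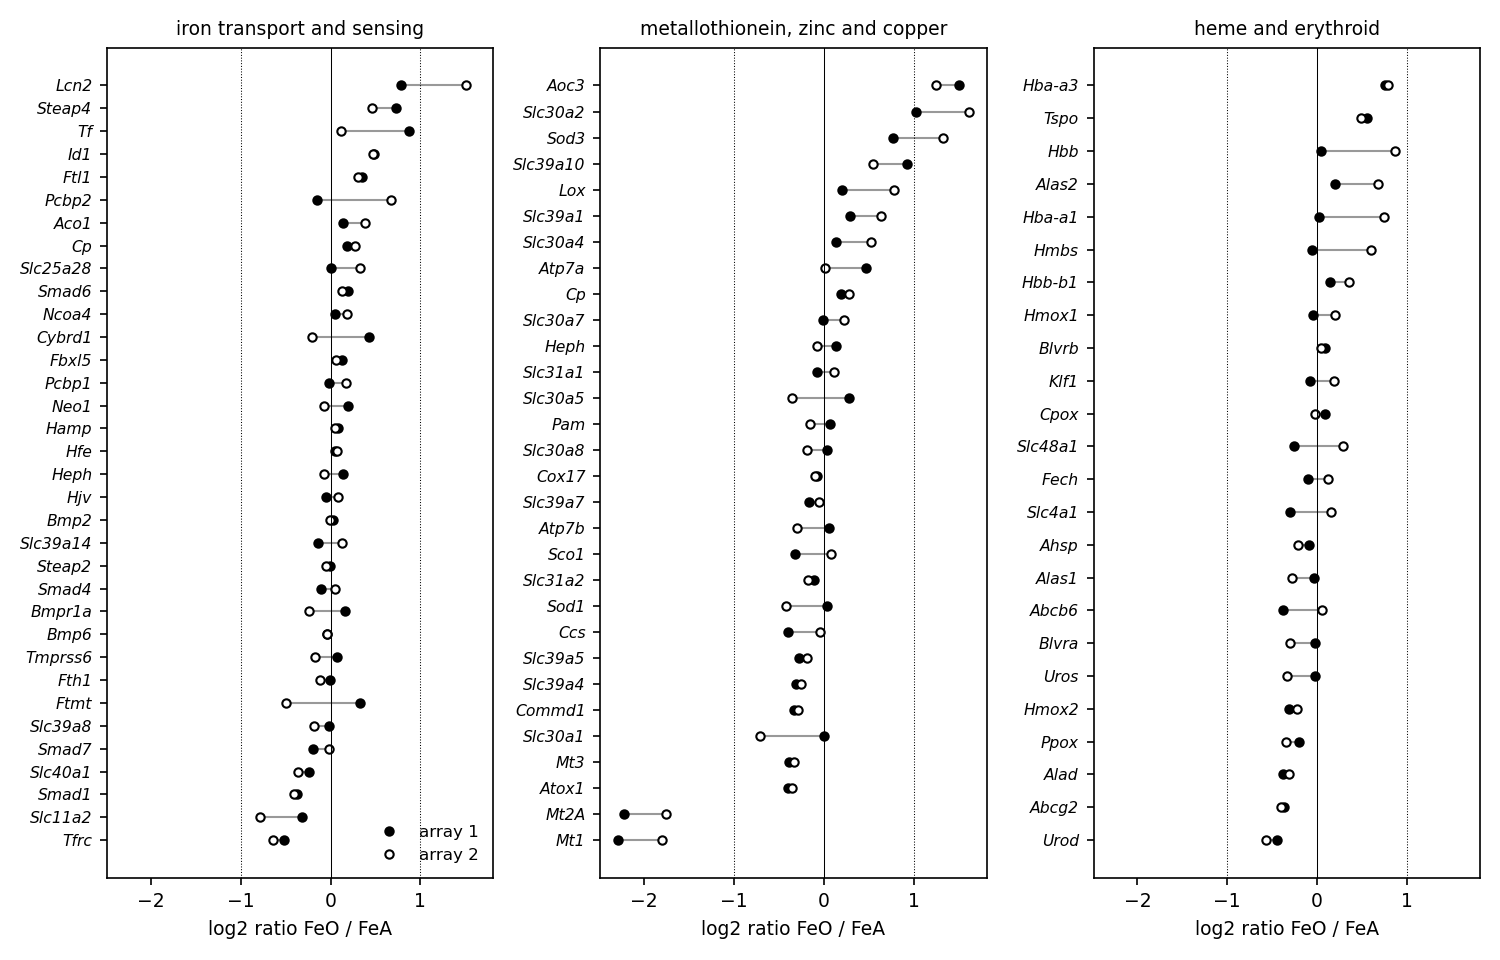
Log2 ratio of FeO over FeA on array 1 (filled) and array 2 (open) of every detected gene of iron transport and sensing, metallothionein, zinc and copper, and heme and erythroid genes, with dotted lines at 2-fold. Mt1 and Mt2A lie near -2 on both arrays, and most other genes lie between the lines.

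Antioxidant genes centred near 0. Of 45 detected, 15 were higher on both arrays, 8 lower and the median was 0.08 (-0.02 on array 1 and 0.28 on array 2). Over all detected genes 28.1% were higher on both arrays and 24.1% lower. Gclc, the limiting enzyme of glutathione synthesis, was 0.28 and 0.26, Nqo1 -0.15 and 0.38, Txnrd1 -0.27 and 0.34 and Slc7a11, the cystine importer, 0.69 and 0.71. Mitochondrial dismutase (Sod2) was 0.60 and 0.54 and glutathione peroxidase Gpx4, which repairs lipid peroxides, -0.25 and 0.32. The members past 2-fold upwards were Mgst1 (1.42 and 1.72), Gpx3 (0.68 and 2.03) and Sod3. Those past it downwards were Gsta5 (-3.62 and -2.95, with FeO above background on array 1 alone), the gut peroxidase Gpx2 (-1.82 and -1.37) and Gsta2 (at least 2.01-fold lower). Gsta5 was also low in FeD, with a mean of -3.11.

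Oxidising enzymes of foreign compounds included some of the highest genes. Of 30 drug metabolism genes, 15 were higher on both arrays and 4 lower, with a median of 0.12. Over all detected genes 28.1% were higher on both arrays and 24.1% lower. Aldehyde oxidase (Aox1), a molybdenum enzyme, was 1.97 and 2.02 (3.99-fold) and the flavin monooxygenase Fmo1 1.71 and 2.20 (3.87-fold). Ces1d, a carboxylesterase of fat and liver, was 1.43 and 1.19. Mtarc1, another molybdenum enzyme, which was named after its values were seen, was 1.72 and 1.81. Of 8 genes for flavin monooxygenases and other oxidases, 6 were higher on both arrays and 0 lower. Hsd17b2, a steroid dehydrogenase, was at least 3.12-fold lower. FeD values of Aox1 and Fmo1 were -0.05 and -0.20 on average.

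Phospholipase Pla2g2a, a secreted enzyme of inflammation, was the fourth highest gene in FeO. Its signals were 3255 (FeO) and 258.5 (FeA) on array 1 and 2153 and 316.5 on array 2, and its log2 ratio was 2.65 and 3.61 (8.78-fold). Of the other 11 phospholipases detected, 0 passed 2-fold. Of 14 eicosanoid enzymes, 7 were higher on both arrays, 2 lower and 0 past 2-fold. Alox15, a lipoxygenase that holds iron, was 0.11 and 1.31, so the arrays did not settle its size, and 3.01 and 4.00 in FeD.

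Amino acid enzymes included Tdh, threonine dehydrogenase, at 1.43 and 1.88 in FeO (3.15-fold) and at 2.55 and 2.88 in FeD. Alanine aminotransferase (Gpt) was 1.22 and 1.74, Cth, which makes cysteine, 0.69 and 1.56 and Mat1a 1.57 and 0.97. Of all 33 detected enzymes, 12 were higher on both arrays and 7 lower. Of 32 glucose enzymes and transporters the 3 past 2-fold were Pck1, Gys2, a glycogen synthase (1.36 and 1.24), and Pc, pyruvate carboxylase (0.77 and 1.65). G6pc1 was -0.93 and -0.78, and the glycolytic gene Gapdh was -0.01 and 1.09.

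Several lists held no gene past 2-fold. The 27 cell cycle genes had a median of -0.13, with 15 lower on both arrays, 1 higher, and the replication gene Mcm4 lowest at -0.65 and -0.98. The 32 respiratory chain genes ranged only from Atp5f1a (-0.37 and -0.34) to Ndufs7 (0.36 and 0.31). Medians of the cholesterol synthesis, hypoxia and iron-sulfur cluster lists lay between 0.00 and 0.02. In smooth muscle the arrays disagreed, with list medians of -0.30 and 0.19.
Of 22 nerve genes, 13 were lower on both arrays and 6 higher, with a median of -0.09. The 2 past 2-fold were higher. They were Pnoc, a neuropeptide precursor (at least 3.25-fold higher), and S100b, of glia and fat cells (0.95 and 1.40).

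Of the 177 genes past 2-fold, 84 were in no list. Among the 15 lowest of the genes above background in both pools were 5 such transcripts, TC595358 (-4.94 and -4.07), Lypd8l2 (-3.62 and -2.90), LOC691259 (-3.47 and -2.91), FQ220235 (-2.81 and -2.48) and LOC362795 (-2.44 and -1.97). Each of Lypd8l2 and LOC691259 had 2 probes that differed, at -4.27 and -2.25 for the former and -4.36 and -2.02 for the latter. The transcript ENSRNOT00000028012 was among the 15 highest at 1.70 and 2.69. Mug1, a plasma protease inhibitor of the alpha-2-macroglobulin family, was among the 15 lowest at -1.91 and -2.24, and its relative Mug1l1, named after its values were seen, was -1.09 and -1.31. Dusp6 (-1.60 and -1.87) and Etv5 (-1.20 and -1.36), targets of the growth factor kinase cascade also named afterwards, were lower, and in FeD they were -1.18 and -1.46 and -0.60 and -0.85. Igfbp2 (1.39 and 1.67) and Igfbp6 (1.05 and 1.74), binding proteins of insulin-like growth factors, angiotensinogen (Agt, 1.83 and 1.27) and Lgals1 (1.04 and 1.53) were higher and chosen likewise.
Over the 77 genes past 2-fold downwards in FeO, FeD was lower on both arrays for 65 and higher on both for 8. Over the 100 genes past it upwards, FeD was higher on both for 46 and lower on both for 21. The median FeD log2 ratio was -0.96 for the former and 0.16 for the latter, against 0.01 over all detected genes. The share of all detected genes with the same sign on both FeD arrays was not counted, so these counts have no baseline. The FeA pool stands in all of these values, and its own level moves both ratios the same way. A shared response to the 2 diets was not tested.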

How the data were processed

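Pancreatic RNA pools were compared on 4 two-colour arrays (Rat GE 4x44K v3). Deposited values are spot intensities from the scanner software (Agilent Feature Extraction 10.1.1.1, as named in the submitters' processing notes), of which median spot and background signals are uncorrected, and processed signals are background corrected and dye normalised. The authors' deposited tables of fold changes, p-values and q-values were not used beyond gene symbols paired with accessions.

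Median signals were corrected by normexp with an offset of 50 and normalised by loess within each array (R 4.3.3, limma 3.58.1). Control probes were removed, as were 764 and 735 spots marked as outliers on the FeO arrays. Spots of a probe were averaged. The median SD between the 10 spots of 1390 replicated probes was 0.134 and 0.135. A probe was well above background when over 50% of its spots were. Names came from RefSeq by accession (59.3% of probes), the authors' table (16.3%) or the array (24.4%). A dim pool gives a bound, set on loess and Aquantile channel values.

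Both arrays hold the same 2 pools and count as 1 replicate, so differences are given by size. The rule for named genes took the 15 highest and 15 lowest genes, list members past 2-fold with up to 6 more, cell markers, metal and heme genes, and genes opposite in FeD, and other list members were named for their roles after their values were seen. The comparison, the 39 gene lists and the rule were chosen with earlier results of these data known. Tables used Python 3.11.15 and pandas 2.3.3. On simulated arrays with 200 changed probes among 30317, the 2-fold limit called 93 of 100 probes changed by 1.5 on the log2 scale, 100 of 100 changed by 2.5 and 0 unchanged probes. Measured ratios were 0.878 of the true ones in the simulation. The simulated dye effect was the same on both arrays and cancels in the mean, and changed probes were drawn from brighter ones. The 0 unchanged probes called follow from the noise that was set and give no error rate for the real arrays. The compression of dim genes was not simulated. Some genes are not reported here.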

Additional observations from a re-analysis of the deposited data

Results flagged for a closer look

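For 8 genes past 2-fold in FeO both FeD arrays moved the other way with a mean log2 ratio of at least 0.5 in size. The difference between the diets was not tested, since each diet is 1 pool and both are set against the same FeA pool. The mean log2 ratio in FeO and in FeD was -2.75 and 1.15 for Glycam1, -2.11 and 1.03 for Mmp7, whose FeO signal was at background, and -1.36 and 1.26 for Fam25a. It was -1.19 and 0.88 for Cd3g, -1.15 and 0.61 for the chemokine receptor Ccr6, -1.13 and 0.90 for the transcript ENSRNOT00000007140 and -1.12 and 0.95 for Coro1a. Pla2g2a was the 1 gene that was higher in FeO and lower in FeD, at 3.13 and -0.56.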

How the results depend on the processing

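The counts of genes at least 2-fold higher, 2-fold lower, 4-fold higher and 4-fold lower were 100, 77, 10 and 19. With a normexp offset of 0 they were 192, 183, 26 and 38, and with the processed signals of the scanner software 346, 288, 56 and 77. A smaller offset compresses the ratios of dim probes less, and for the processed signals the cause was not tested. With array 1 or array 2 left out, the counts ranged from 89 to 240, from 87 to 94, from 9 to 21 and from 17 to 18. The high ends of 240 and 21 came from array 2 alone, with FeO in Cy3, and the cause was not tested. The methods' t-test on channel intensities kept 82, 73, 10 and 19 at its threshold and 0, 0, 0 and 0 after Benjamini-Hochberg adjustment, and limma with that adjustment kept 68, 65, 10 and 19. These tests compare the RNA pools on repeated arrays, not the diets. The other alternatives (no background subtraction, median centring, other filters on dim probes, the brightest or any probe of a gene) left the 4 counts within 1.5 times. None of 1571 recomputed ratios of the 177 genes past 2-fold changed sign, and 69 of these genes fell below 2-fold in at least 1 setting. The absence of sign changes was partly fixed in advance. These genes were chosen for the same sign on both arrays, so leaving out 1 array could not change it. Settings that only choose among probes leave a gene with 1 probe on the array as it was. Of 351 list medians under these alternatives 107 moved by more than the spread between arrays, with the widest ranges for the gut list (median -0.75, range -2.10 to -0.58), the mast cell list (0.55, range 0.12 to 0.96) and the lymphocyte list (-0.41, range -1.03 to -0.27). No paired analysis was possible because each diet is 1 pool and the counts come from no test. Signal over background limits the 15 genes that were lower and at background in FeO on both arrays (a further 2, Gsta5 and Creb3l3, were so on array 2 alone), and the 3 higher ones not well above it in FeA, to bounds.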
